A study of Mus musculus with 10 samples.

Results

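The 9 genes described here encode acute phase proteins that fat can make and serine protease inhibitors of the Serpina3 family. They are Hp, Orm1, Cp, Saa3, Lcn2, Serpina3n, Serpina3c, Serpina3g and Serpina3k, taken by name from the 51826 genes listed for each library, of which 33120 have an exon length and can hold exon reads. Inguinal white adipose tissue (iWAT), a fat pad under the skin of the groin, was taken from male C57BL/6 mice and its RNA was sequenced after removal of ribosomal RNA. In the F0 generation, 2 libraries came from males on a control diet (F0-CD) and 2 from males on a low-protein diet (F0-LPD) at 10 to 12 weeks of age, each diet having been given since weaning. In the F1 generation, at 5 weeks of age, 3 libraries came from male offspring of CD fathers (F1-CD) and 3 from male offspring of LPD fathers (F1-LPD, or pLPD offspring). All mothers and all offspring ate the CD, so in F1 the diet is that of the father and not of the mouse measured, whereas in F0 it is the mouse's own. The labels tie no offspring to its father and do not say that the F0 males measured were fathers. Generation, age and the set of libraries coincide and cannot be told apart.

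The acute phase response is the change in blood plasma proteins that follows injury or infection. Cytokines such as interleukin 6 and interleukin 1 switch it on through STAT3, C/EBP and NF-κB transcription factors, mostly in the liver, and fat cells make a smaller set of the same proteins. Serpins are protease inhibitors that trap their target with an exposed loop, and the mouse carries a cluster of Serpina3 copies where human has a single SERPINA3 gene, so that the copies differ most in that loop and are much alike elsewhere.

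Total exon reads were between 6351075 and 10044546 per library, and levels are given as counts per 1000000 of these reads (CPM) after TMM normalization. A level of 3 reads is 0.299 to 0.472 CPM, which is the limit of detection as far as counting error goes. All 6 adipocyte markers had at least 3 reads in every library, at a summed 10480 to 18040 CPM. Introns held 40.7 to 48.4% of the reads on nuclear protein-coding genes in F1-LPD, against 36.0 to 37.5% in F1-CD and 36.3 to 38.0% in F0, so the F1 groups did not overlap in this measure of the RNA. F1-LPD replicate 3 stood apart in inflammatory genes, as given with Saa3 and Lcn2.

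Per exon length, haptoglobin (Hp) was the most abundant member. Its deposited RPKM had a median of 290 over the 10 libraries and a range of 198 to 403, above the highest Orm1 value of 117. Then came Orm1 at a median of 59.7 RPKM, Serpina3n at 39.1, Serpina3c at 27.3 and Cp at 11.9. The ranges of neighbours among these 4 genes overlapped. Serpina3g had a median of 5.51 RPKM and lay wholly below Cp. The lowest 3 were Lcn2 at 0.482, Serpina3k at 0.456 and Saa3 at 0.205 RPKM, with ranges that overlapped one another, and they were also the 3 that varied most, by 19.2-fold, 52.6-fold and 43.8-fold between their lowest and highest library.

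**Figure D1:**
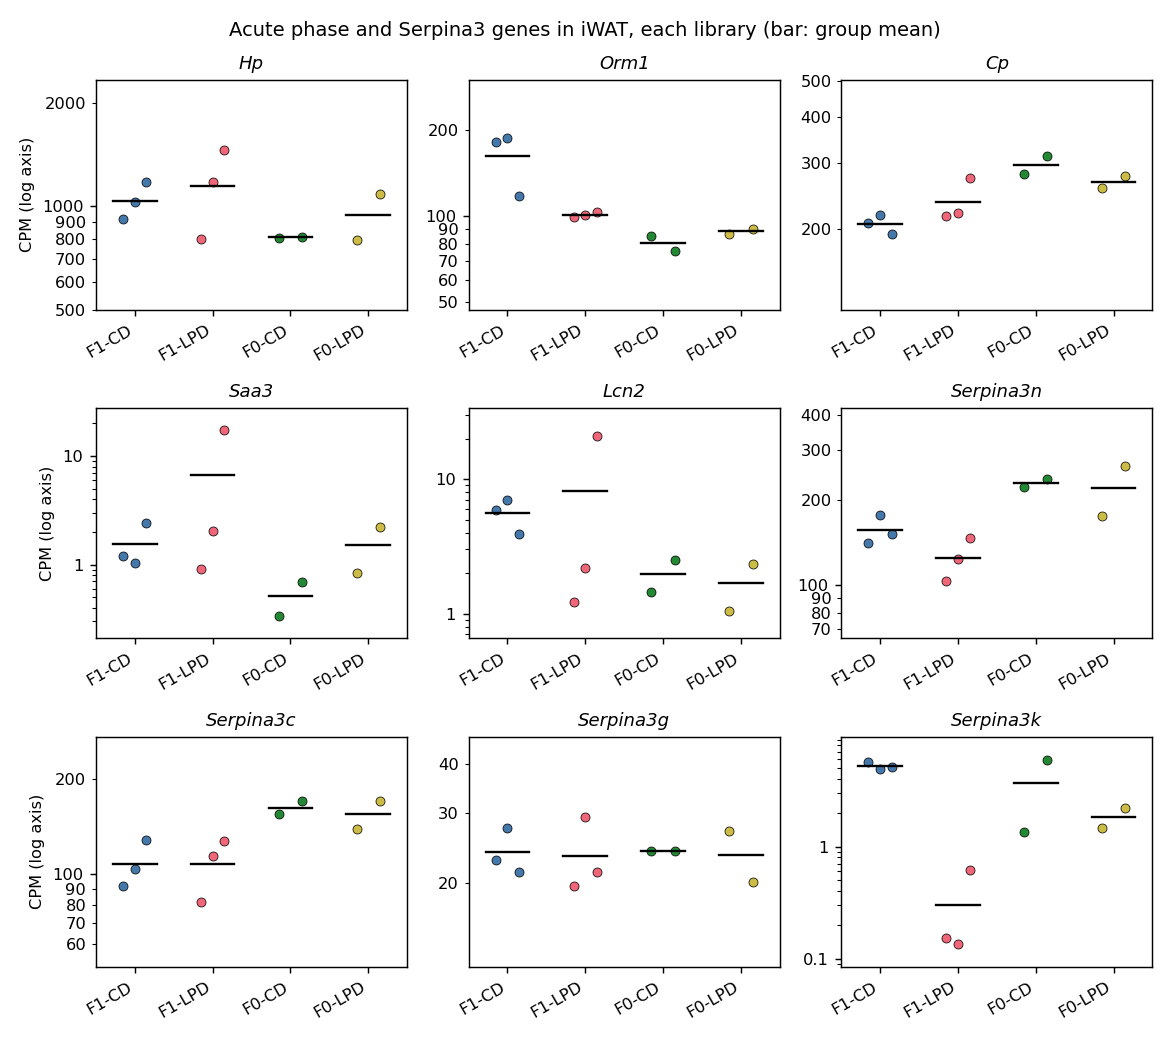
CPM of each member (log axis, 1 panel per gene) in every library, by group, with a bar at the group mean. Serpina3k lay at 4.97 to 5.66 CPM in F1-CD and at 0.135 to 0.623 in F1-LPD, while Saa3 and Lcn2 each show 1 F1-LPD library far above the other 2.

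The first comparison asked whether the diet of the father changed these genes in the fat of the sons. Serpina3k, a secreted Serpina3 inhibitor known best from the liver, fell in F1-LPD by 4.06 on the log2 scale (SE 0.48, adjusted p = 0.00582, edgeR quasi-likelihood test). It was 1 of 9 members past the threshold, beside 1.17% of all 14049 genes tested and 1.02% for falls alone. Orm1 lay lower in all 3 pLPD offspring, but its adjusted p of 0.0573 missed the threshold. The 2 groups did not overlap for these 2 members, both lower, beside 10.9% of all genes lower and 20.1% in either direction. At an unadjusted p under 0.05 the members were 4, namely Serpina3k, Orm1, Serpina3n and Saa3. Over all 14049 genes tested, 923 were higher and 1231 lower at that level. The median log2 fold change over the 9 members was 0.01, equal to that over all genes at this rounding. In whole tissue, fewer cells of a type and less RNA per cell cannot be told apart.

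**Figure D2:**
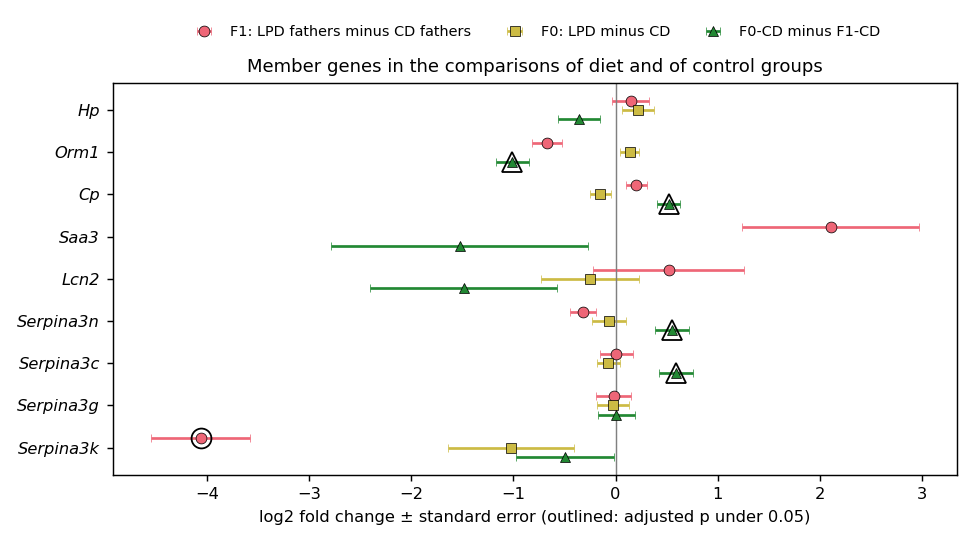
Log2 fold change with its standard error for each member in F1 (LPD fathers minus CD fathers), in F0 (LPD minus CD) and between the control groups (F0-CD minus F1-CD), with an outline where the adjusted p is under 0.05. Outlined are Serpina3k in F1 at −4.06 and, between the control groups, Orm1, Cp, Serpina3n and Serpina3c, and no F0 point is outlined. Saa3 has no F0 point because its counts there were too low to test.

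The same question in the F0 males, where the diet was their own, gave no member past the threshold. Of the 9 genes, 8 had enough reads to test, and edgeR called 0, beside 2.5% of the 14581 genes tested. At an unadjusted p under 0.05 the count was also 0, as it was for edgeR's likelihood ratio test, DESeq2 and limma at their adjusted threshold. Over all 14581 genes tested, 1098 were higher and 1196 lower at an unadjusted p under 0.05. The groups did not overlap for 3 members, Saa3 and Orm1 higher and Cp lower in F0-LPD, beside 46.4% of all genes. The median over the 8 tested members was −0.07, against 0.00 over all genes. In the test of the difference between the generations over all 10 libraries, 0 of 9 members passed the quasi-likelihood threshold, beside 1.25% of 15111 genes in either direction and 0.893% with the lower value in F1. There, 3 had an unadjusted p under 0.05 (Orm1, Serpina3k and Cp), beside 742 genes higher and 1145 lower of all 15111. The likelihood ratio test called 2 members, DESeq2 1 and limma 0.

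Hp binds free haemoglobin in plasma. It lay at 914.5, 1027 and 1171 CPM in F1-CD and at 800.6, 1173 and 1456 CPM in F1-LPD. The F1-LPD libraries lay on both sides of the F1-CD range, and the log2 fold change was 0.15 (SE 0.18, adjusted p = 0.755). The F0 levels were 807 and 815 CPM in F0-CD against 799 and 1087 in F0-LPD, again overlapping, with a log2 fold change of 0.22 (SE 0.15, adjusted p = 0.571). The gene lies on chromosome 8 from 109575128 to 109579172 (mm10, minus strand), and all of its reads matched uniquely.

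Orm1 encodes orosomucoid 1, a plasma carrier of lipids and drugs. It was read at 182, 187 and 117 CPM in F1-CD and at 99.1, 101 and 104 CPM in F1-LPD. Every F1-CD library lay above the other 7 libraries of the series, and F1-CD replicate 3 was nearest to them. The log2 fold change in F1 was −0.67 (SE 0.15), 1.59-fold lower. With each of the 6 libraries left out it was −0.85 to −0.55 and passed the threshold 1 time of 6, without F1-CD replicate 3 (adjusted p = 0.000319, against up to 0.239 for the rest). With the exon share as a covariate the adjusted p was 0.593, but the F1 groups did not overlap in that share, so it is hardly separable from diet. In F0 the levels were 85.5 and 75.4 CPM in F0-CD and 86.7 and 90.5 in F0-LPD, a log2 fold change of 0.14 (SE 0.09, adjusted p = 0.541). The difference between the 2 effects was −0.82 (SE 0.22, adjusted p = 0.0999). With each of the 10 libraries left out it was −0.998 to −0.70 and passed 1 time of 10, again without F1-CD replicate 3 (adjusted p = 0.00236, against up to 0.414 for the rest). Markers of adipose progenitors and fibroblasts summed to 9603, 11300 and 6331 CPM in the 3 F1-CD libraries and to 4435 to 5290 in F1-LPD, with all 5 detected in both, and their part in the Orm1 values was not tested. Orm1 lies on chromosome 4 from 63344560 to 63348163 (plus strand). Of its 36-base words, the read length, 25.7% also occur in Orm2, so reads of the 2 genes may be split, but 92.9% of its reads were counted as unique.

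Cp encodes ceruloplasmin, a copper protein of plasma that oxidises iron. It lay at 208, 219 and 195 CPM in F1-CD and at 217, 221 and 274 CPM in F1-LPD. The highest value was that of F1-LPD replicate 3, and the other 2 pLPD offspring were within or just above the F1-CD range. The log2 fold change was 0.20 (SE 0.10, adjusted p = 0.384). The F0 levels were 280 and 314 CPM in F0-CD against 258 and 277 in F0-LPD, −0.15 on the log2 scale (SE 0.10, adjusted p = 0.559). Cp lies on chromosome 3 from 19957054 to 20009145 (plus strand), overlaps the minus-strand gene Hps3, and had 96.6% unique reads.

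Saa3 encodes the serum amyloid A made outside the liver, and Lcn2 encodes lipocalin 2, which binds bacterial iron carriers and is made by neutrophils and fat. The stretches from 250 to 61 bases before their starts are shown because the 2 genes were high in the same library, and both hold the letters TTGCNNAA, of the kind bound by C/EBP factors, on one strand or the other. The match is in capitals. Of 32851 promoter stretches of 250 bases in RefSeq (GRCm38.p6), 9.56% hold these letters, and a match is a description and not a site. The letters are not particular to this pair. Cp also held them before 1 of its starts, at −70, while Serpina3c, Serpina3g and Serpina3n held none. The Lcn2 stretch is chr2:32387800-32387989 (minus strand), lies partly in an exon of a longer Lcn2 transcript, and has its match at −216. The Saa3 stretch is chr7:46715737-46715926 (minus strand), with its match at −99.
Lcn2: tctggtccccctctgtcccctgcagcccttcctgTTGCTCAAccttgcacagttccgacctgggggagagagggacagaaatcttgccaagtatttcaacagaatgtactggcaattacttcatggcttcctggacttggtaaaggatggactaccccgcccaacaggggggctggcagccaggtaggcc
Saa3: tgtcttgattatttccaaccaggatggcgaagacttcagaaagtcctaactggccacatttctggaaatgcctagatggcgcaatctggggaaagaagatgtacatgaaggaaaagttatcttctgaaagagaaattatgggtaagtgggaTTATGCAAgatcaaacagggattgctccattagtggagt

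Saa3 was counted with 9, 9 and 18 reads in F1-CD and with 6, 15 and 111 reads in F1-LPD, or 1.21, 1.04 and 2.42 CPM against 0.917, 2.03 and 17.3. F1-LPD replicate 3 was 7.15-fold above the highest of the other 9 libraries, and the other 2 pLPD offspring overlapped F1-CD. The log2 fold change of 2.11 (SE 0.87, adjusted p = 0.278) missed the threshold, and without that library it was −0.041. In F0, Saa3 had 3 and 7 reads in F0-CD and 8 and 19 in F0-LPD, too few to pass the filter. Both F0-LPD libraries lay higher, at 0.839 and 2.22 CPM against 0.335 and 0.698, where 3 reads are 0.299 to 0.347 CPM.

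Lcn2 was read at 5.93, 6.93 and 3.89 CPM in F1-CD and at 1.22, 2.17 and 21.0 CPM in F1-LPD. The same library was the highest, 3.03-fold above any other, and the other 2 pLPD offspring lay below all 3 F1-CD libraries. The log2 fold change was 0.52 (SE 0.74, adjusted p = 0.796) with this library and −1.69 (SE 0.42, adjusted p = 0.0894) without it, so that 1 library set the sign. In F0, Lcn2 lay at 1.45 and 2.49 CPM in F0-CD and at 1.05 and 2.34 CPM in F0-LPD, −0.25 on the log2 scale (SE 0.48, adjusted p = 0.871). All reads of Saa3 and of Lcn2 matched uniquely.

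Genes of the neutrophil S100 pair were high in that library too. S100a9 was at 17.9 CPM there and at 0.0997 to 1.99 in the other 9, and S100a8 at 6.07 CPM against 0.134 to 1.62. The 10 neutrophil markers summed to 33.0 CPM in F1-LPD replicate 3, to 9.94 and 11.2 in the other pLPD offspring, and to 11.8 to 15.6 in F1-CD. All 10 had a read in both groups, but at least 3 reads in every library were found for 5 in F1-CD and 4 in F1-LPD. Without the S100 pair, the other 8 summed to 9.03 CPM in that library. They summed to 8.87 and 8.80 in the other pLPD offspring and to 10.7 to 12.6 in F1-CD. Camp and Ltf were at 0 in F1-LPD replicate 3, but Retnlg had 7 reads there. Retnlg had 0 in the other pLPD offspring, 1 to 2 in F1-CD and 0 to 1 in F0. Il1rn, the interleukin 1 receptor antagonist, had 69 reads in the same library and 2 to 18 in the other 9. All pLPD offspring lay above F1-CD for Il1rn, at 1.68 CPM or more against at most 1.21. Its log2 fold change in F1 of 2.17 (SE 0.67, adjusted p = 0.152, edgeR) missed the threshold. Il1b, which encodes an interleukin 1, had 132 reads (20.5 CPM) in F1-LPD replicate 3. Its counts were 1 to 4 in F1-CD, 3 to 9 in F0-CD and 11 to 13 in F0-LPD. Its lowest count in F1-LPD was 7, so the F1 groups did not overlap, but the filter removed it and it was not tested in F1. The part of neutrophils in the Saa3 and Lcn2 values was not tested.

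**Figure D3:**
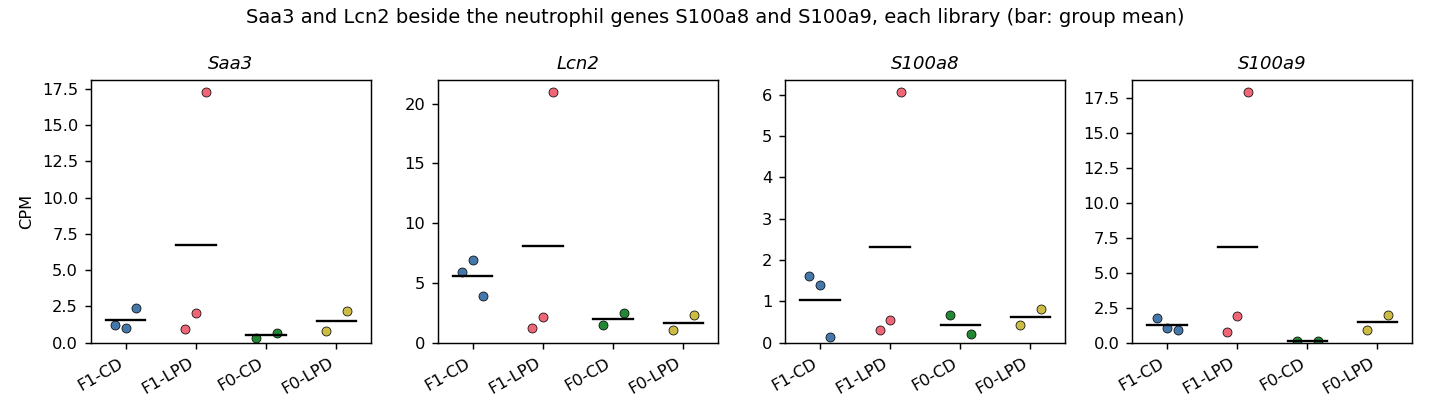
CPM of Saa3, Lcn2, S100a8 and S100a9 (linear axes from 0) in every library, by group, with a bar at the group mean. In each panel 1 F1-LPD library, replicate 3, stands above the other 9, at 17.3, 21.0, 6.07 and 17.9 CPM.

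The 4 Serpina3 members lie in 1 cluster on chromosome 12 (mm10), Serpina3c from 104146382 to 104153870 on the minus strand, Serpina3g from 104236245 to 104241939, Serpina3k from 104338486 to 104346144 and Serpina3n from 104406729 to 104414329 on the plus strand. The coding stretch of the reactive loop, the bait that the target protease cuts, is shown for 3 of them and for Serpina3m. The stretches were found with a pattern that fixes part of the bases on either side, so the likeness there was largely set by the search. Serpina3g did not match the pattern and is not shown. The capitals mark by position the stretch between the hinge codons and the bases after the loop. Some bases in small letters differ as well, as in Serpina3n and Serpina3c. It is 42 bases in Serpina3k, 48 in Serpina3m and Serpina3n and 39 in Serpina3c. The stretches are chr12:104345269-104345346 (Serpina3k), chr12:104393769-104393852 (Serpina3m), chr12:104413448-104413531 (Serpina3n) and, on the minus strand, chr12:104147313-104147387 (Serpina3c), read from GENCODE vM21 transcripts.
Serpina3k: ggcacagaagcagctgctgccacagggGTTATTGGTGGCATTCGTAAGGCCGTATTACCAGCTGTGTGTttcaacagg
Serpina3m: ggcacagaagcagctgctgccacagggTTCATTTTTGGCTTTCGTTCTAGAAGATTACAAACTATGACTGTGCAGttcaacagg
Serpina3n: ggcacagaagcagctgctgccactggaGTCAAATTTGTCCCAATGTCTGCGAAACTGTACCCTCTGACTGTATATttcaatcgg
Serpina3c: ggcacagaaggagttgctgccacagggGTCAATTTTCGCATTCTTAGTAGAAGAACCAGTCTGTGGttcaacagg

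Of the 36-base words of Serpina3k, 20.6% occur in other genes, most of them in Serpina3m, and only 41.9% of its exon reads matched uniquely. Serpina3k also lies within the listed span of Serpina3m on the same strand. For Serpina3g, 24.2% of the words were shared and 89.5% of the reads were unique. Serpina3n and Serpina3c shared 16.9% and 12.5% of their words but had over 99.2% unique reads each.

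Serpina3k had 42, 43 and 38 exon reads in the F1-CD libraries and 1, 1 and 4 in F1-LPD, or 5.66, 4.97 and 5.10 CPM against 0.153, 0.135 and 0.623. The F1-CD libraries were close to one another and all far above the pLPD offspring, of which 2 lay under the level of 3 reads. Summed over the mice and scaled to library size, the level was 17.7-fold lower, with a 95% exact counting interval of 7.92 to 49.3, which covers counting error only and leaves out the spread between mice. The unique reads alone were 10, 23 and 14 against 1, 1 and 2, which is 10.2-fold lower (interval 3.72 to 38.9), and were too few to pass the filter for a fit of their own. With each of the 6 libraries left out in turn, the log2 fold change was −5.03 to −3.70 and passed the threshold 6 times of 6. With the exon share as a covariate, an alternative chosen after seeing the data, it was −3.26 with an adjusted p of 0.451. The F1 groups did not overlap in this share, so that fit can hardly tell it from the diet of the father. Over all genes it called 1 higher and 10 lower.

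Markers of epithelium were lower in F1-LPD than in F1-CD, as Serpina3k was. Within F1-LPD their sum was highest in replicate 2, at 3.66 CPM, of which Epcam gave 2.57. Serpina3k had 1 read in that library, as in replicate 1. Krt18 and Serpina3k both had their highest F1-LPD count in replicate 3, at 2 and 4 reads. The epithelial markers summed to 9.13 to 14.0 CPM in F1-CD and to 0.306 to 3.66 in F1-LPD. In each group 6 of 7 had a read, with Wap at 0 in F1-CD and Krt5 at 0 in F1-LPD. At least 3 reads in every library were found for 4 in F1-CD and 0 in F1-LPD. The keratin gene Krt18 had 34, 16 and 27 reads in F1-CD and 0, 0 and 2 in F1-LPD, and its fall also passed the threshold (−4.84, SE 0.80, adjusted p = 0.0196). The hepatocyte markers, which would mark liver RNA, summed to 41.2 to 48.5 CPM in F1-CD and 44.7 to 69.3 in F1-LPD, nearly all of it Alb. In each group 4 of 8 had a read, but only 1 had at least 3 reads in every library. Ttr and Cyp3a11 were at 0 in both. The part of epithelial cells in the Serpina3k values was not tested.

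In F0, Serpina3k had 12 and 60 reads in F0-CD and 14 and 19 in F0-LPD, or 1.34 and 5.98 CPM against 1.47 and 2.22. Replicate 2 of F0-CD stood just above the F1-CD libraries and the other 3 libraries lay between the 2 F1 groups. The log2 fold change was −1.02 (SE 0.61, adjusted p = 0.489) and turned to 0.45 without F0-CD replicate 2. The F0 effect and the F1 effect differed by −3.07 (SE 0.93, adjusted p = 0.148). Only 1 of the 12 reads of F0-CD replicate 1 was unique, against 29 of 60 in replicate 2. The hepatocyte markers, mostly Alb, summed to 126.5 and 192.6 CPM in F0-CD and to 67.8 and 66.5 in F0-LPD. The epithelial markers summed to 2.79 and 4.19 CPM in F0-CD and to 2.83 and 2.45 in F0-LPD. Both sums were highest among the F0 libraries in F0-CD replicate 2, and the part of either cell type in the Serpina3k values was not tested.

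**Figure D4:**
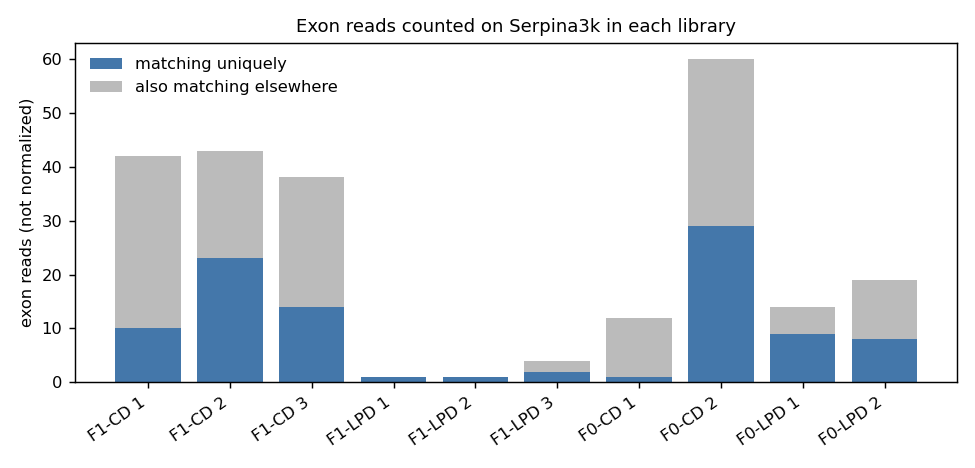
Exon reads counted on Serpina3k in each of the 10 libraries, not normalized, split into uniquely matching reads (lower part of each bar) and reads that also match elsewhere (upper part). The F1-LPD libraries hold 1, 1 and 4 reads and the F1-CD libraries 38 to 43, and F0-CD differs between its 2 libraries, at 12 and 60.

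Among 14558 genes that are no member and have a mean of at least 1 CPM, Ston2 followed Serpina3k most closely over the 10 libraries (Pearson r = 0.957 on log2 CPM with 0.5 added), then Clec4a2 (0.931) and Fam210b (0.928). Ston2 was at 17.4 to 18.7 CPM in F1-CD and 8.26 to 12.4 in F1-LPD, and 20.5 in F0-CD replicate 2. These points share libraries and generations, and the values are a description.

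Serpina3n, an inhibitor of granzyme B and elastase that fat and liver secrete, lay at 141, 177 and 151 CPM in F1-CD and at 104, 124 and 147 CPM in F1-LPD. The pLPD values were mostly lower, but the groups overlapped. The log2 fold change was −0.32 (SE 0.13, adjusted p = 0.265). In F0 the 2 F0-CD libraries, at 221.5 and 236 CPM, lay between the 2 F0-LPD libraries, at 175 and 264, and the log2 fold change was −0.06 (SE 0.17, adjusted p = 0.914).

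Serpina3c was at 91.8, 104 and 128 CPM in F1-CD and at 81.3, 114 and 128 in F1-LPD, groups that covered the same range (log2 fold change 0.01, SE 0.16, adjusted p = 0.990). In F0 it was at 155 and 170 CPM in F0-CD and 139.5 and 171 in F0-LPD (−0.07, SE 0.11, adjusted p = 0.842). Serpina3g, whose product inhibits cathepsins inside cells, had nearly the same mean in every group, at 23.9 ± 3.2 CPM (SD, n = 3) in F1-CD, 23.4 ± 5.2 in F1-LPD, 24.1 ± 0.07 (n = 2) in F0-CD and 23.6 ± 4.9 in F0-LPD. Its log2 fold change was −0.02 (SE 0.17) in F1 and −0.03 (SE 0.15) in F0, with adjusted p of 0.975 and 0.968.

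The other 7 Serpina3 genes were low. In F1, 2 had enough reads to test, Serpina3f at 4.74 to 5.23 CPM in F1-CD and 2.45 to 5.42 in F1-LPD, and Serpina3m at 2.15 to 5.12 and 3.21 to 3.93, and edgeR, DESeq2 and limma called 0 of 2, with 0 at an unadjusted p under 0.05. Serpina3m, the copy most like Serpina3k, thus gave a log2 fold change of −0.21 (SE 0.36, adjusted p = 0.834) in F1, where 88.5% of its reads in F1-CD were unique. In F0, 0 of 3 tested genes were called by edgeR's quasi-likelihood test or DESeq2, 1 by the likelihood ratio test and 1 by limma. At an unadjusted p under 0.05 there were 2, beside 1098 genes higher and 1196 lower of all 14581. Serpina3m was at 3.69 and 3.89 CPM in F0-CD against 1.26 and 1.28 in F0-LPD, −1.57 on the log2 scale (SE 0.34, adjusted p = 0.0505).

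A further comparison was that of the 2 control groups, which differ in generation, age and library set. Here 4 of 9 members passed the threshold, beside 18.9% of 15111 genes, with 3 higher in F0-CD (8.78% of all genes) and 1 lower (10.1%). The groups did not overlap for 7 members, beside 49.9% of all genes. The control libraries are the same as in the diet comparisons. Orm1 fell to 80.4 ± 7.1 CPM (SD, n = 2) in F0-CD from 162 ± 38.9 (n = 3) in F1-CD, 2.01-fold lower (−1.01, SE 0.16, adjusted p = 0.000913). The direction was opposite for Cp, at 297 ± 24.0 against 207 ± 12.1 CPM (0.52, SE 0.11, adjusted p = 0.00588).

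Serpina3c and Serpina3n were both higher in F0-CD, by 1.51-fold (0.59, SE 0.17, adjusted p = 0.0284) and 1.46-fold (0.55, SE 0.17, adjusted p = 0.0354). Serpina3c was at 163 ± 10.9 CPM against 108 ± 18.5 and Serpina3n at 229 ± 10.5 against 156 ± 18.7. Each call was lost without any of 4 libraries, F0-CD replicate 1 (adjusted p = 0.0689 for Serpina3c and 0.0918 for Serpina3n), F0-CD replicate 2 (0.205 and 0.215), F1-CD replicate 1 (0.102 and 0.117) and, for Serpina3c, F1-CD replicate 2 (0.0753) or, for Serpina3n, F1-CD replicate 3 (0.0618). The call of Cp was lost without F0-CD replicate 2 (adjusted p = 0.101), and that of Orm1 held without each of the 10. Hp, Lcn2 and Saa3 lay lower in both F0-CD libraries without passing (adjusted p = 0.253, 0.285 and 0.432), although Lcn2, at −1.49, passed without F1-LPD replicate 3 (adjusted p = 0.0288), a library of neither control group, which enters through the shared filter, normalization and spread. Skeletal muscle markers summed to 1273 and 1887 CPM in F0-CD against 73.8 to 149 in F1-CD, and progenitor and fibroblast markers to 2137 and 2318 against 6331 to 11300, and their part in these differences was not tested.

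The promoters of Serpina3c and Serpina3n, both higher in F0-CD, are shown because they are themselves near copies. Over 247 aligned bases, 229 were identical, or 92.7%, and capitals mark the bases that differ. The stretches are the 250 bases before each start in RefSeq (GRCm38.p6), chr12:104153873-104154122 on the minus strand for Serpina3c and chr12:104406458-104406707 on the plus strand for Serpina3n.
Serpina3c: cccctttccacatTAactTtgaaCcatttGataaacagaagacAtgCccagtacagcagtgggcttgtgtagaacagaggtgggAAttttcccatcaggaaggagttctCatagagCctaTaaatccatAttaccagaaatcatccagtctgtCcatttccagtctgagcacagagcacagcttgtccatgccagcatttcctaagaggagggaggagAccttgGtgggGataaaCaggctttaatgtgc
Serpina3n: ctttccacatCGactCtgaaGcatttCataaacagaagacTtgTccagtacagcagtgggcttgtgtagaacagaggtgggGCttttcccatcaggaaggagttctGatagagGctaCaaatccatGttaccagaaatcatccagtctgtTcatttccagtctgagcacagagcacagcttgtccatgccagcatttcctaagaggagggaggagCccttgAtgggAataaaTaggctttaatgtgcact

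The wider acute phase list held 34 further genes. In F1, 0 of the 18 tested rose and 1 fell, beside 1.02% of all genes that fell. This was Serpinf1, which encodes a serpin without inhibitor activity that fat secretes. It was at 150, 151 and 131 CPM in F1-CD and at 79.2, 103 and 109 in F1-LPD, with no overlap (−0.56, SE 0.12, adjusted p = 0.0490). The call was lost without F1-CD replicate 1 (adjusted p = 0.190) or 2 (0.207) and without F1-LPD replicate 1 (0.0969) or 2 (0.149). The most abundant genes of the list, the complement genes C3 and C4b and then Steap4 and Serping1, had log2 fold changes of −0.10, −0.32, −0.25 and −0.28 and did not pass.

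In F0, 3 of the 18 tested genes of this list rose and 1 fell, beside 1.18% and 1.32% of all genes. Lbp, whose product binds bacterial lipopolysaccharide, was at 37.9 and 31.7 CPM in F0-CD and at 65.3 and 95.2 in F0-LPD (1.20, SE 0.17, adjusted p = 0.0138). Lrg1, a leucine-rich plasma glycoprotein, was at 107 and 95.1 CPM against 179 and 259 (1.11, SE 0.16, adjusted p = 0.0144). These rises were 2.30-fold and 2.17-fold, and both passed with each of the 4 libraries left out. Il1rn rose from 2 and 4 reads to 17 and 18 (2.57, SE 0.53, adjusted p = 0.0463) and lost the call without any 1 of the 4 libraries (adjusted p = 0.150 to 0.303).

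Agt, the precursor of angiotensin, fell from 29.95 and 42.7 CPM to 18.8 and 18.5 (−0.97, SE 0.17, adjusted p = 0.0258). Its call was lost without F0-CD replicate 2 (adjusted p = 0.0738), F0-LPD replicate 1 (0.0609) or F0-LPD replicate 2 (0.106). Hepatocyte markers, mostly Alb, summed to 126.5 and 192.6 CPM in F0-CD and 67.8 and 66.5 in F0-LPD, where Cyp3a11 was at 0, and their part in the Agt values was not tested. The list median was −0.10 in F1 and −0.17 in F0, near the 0.01 and 0.00 of all genes.

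Of 26 cytokine, receptor and transcription factor genes that act on acute phase genes, edgeR called 0 of the 23 tested in F1, beside 1.17% of all genes. The likelihood ratio test called 1, DESeq2 1 and limma 0. At an unadjusted p under 0.05 there were 4, beside 923 genes higher and 1231 lower of all 14049. In F0, 1 of 24 was called, beside 2.5% of all genes. Cebpb, a C/EBP factor that drives acute phase genes, rose from 80.1 and 78.2 CPM to 119 and 112.5 (0.55, SE 0.09, adjusted p = 0.0186). In F1 it lay the other way, at 174, 182 and 202 CPM in F1-CD and 149, 121 and 145 in F1-LPD, groups that did not overlap (−0.42, SE 0.10, adjusted p = 0.0683). Most Cebpb reads did not match uniquely. In F0-CD, 231 to 272 reads were unique of 717 to 784, and in F0-LPD 377 to 397 of 963 to 1135. The F0 call was lost without F0-CD replicate 1 (adjusted p = 0.0521) or 2 (0.0759) or F0-LPD replicate 2 (0.0512). The most abundant genes of this list, Cebpa, Il6st, Jak1 and Nr3c1, did not pass in F1 or F0.

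Of 21 genes that handle iron and haem or encode proteases, 18 were tested in each generation. In F1, 2 fell and 0 rose, beside 1.02% of all genes that fell. In F0, 1 fell and 0 rose, beside 1.32% of all genes that fell. Hephl1, a copper oxidase related to ceruloplasmin, fell in F1 from 65.7, 77.7 and 54.8 CPM to 13.8, 12.7 and 18.2 (−2.15, SE 0.16, adjusted p = 0.000383), 4.42-fold lower and with no overlap. The F0 libraries lay at 14.1 to 30.1 CPM, near the pLPD offspring. Cd163, the macrophage receptor that takes up haemoglobin bound to haptoglobin, fell in both generations, with adjusted p of 0.0313 in F1 and 0.0358 in F0. It went from 93.9, 107 and 133 CPM to 60.7, 69.6 and 73.8 in F1 (−0.70, SE 0.13) and from 95.8 and 105 to 70.5 and 74.5 in F0 (−0.47, SE 0.09).

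The F1 call of Cd163 was lost without F1-CD replicate 1 (adjusted p = 0.0539) or 2 (0.113) and without F1-LPD replicate 1 (0.0962) or 2 (0.124). Its F0 call was lost without F0-CD replicate 2 (adjusted p = 0.169), F0-LPD replicate 1 (0.112) or F0-LPD replicate 2 (0.113). The 7 macrophage markers, all detected in every group, summed to 1039 to 1278 CPM in F1-CD and 724 to 846 in F1-LPD, and to 1049 and 1101 in F0-CD and 1053 and 975 in F0-LPD. The part of macrophages in the Cd163 values was not tested. The most abundant genes of this list, Trf, Ctsb, Fth1 and Ftl1, did not pass in F1 or F0.

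**Figure D5:**
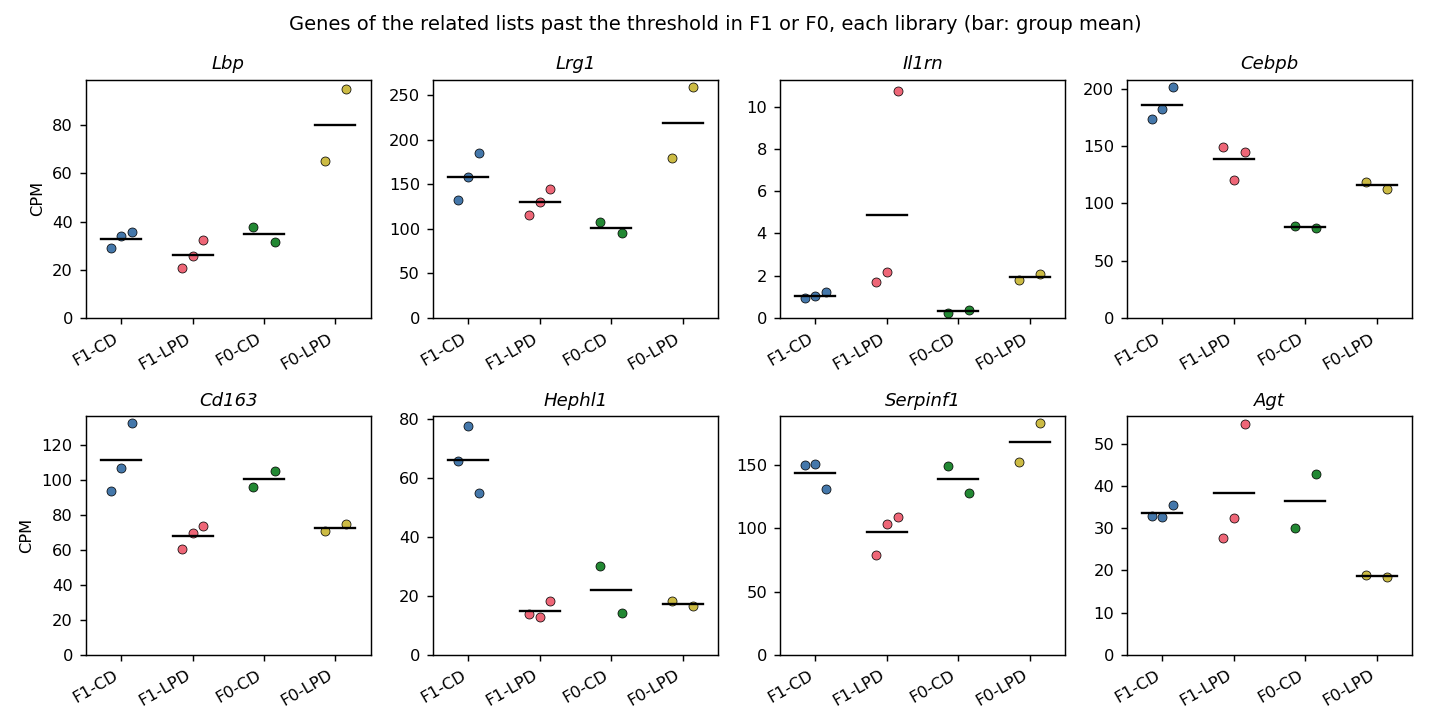
CPM (linear axes from 0) of 8 genes of the related lists that passed the threshold in F1 or F0, in every library, by group, with a bar at the group mean. Lbp, Lrg1 and Cebpb were highest in F0-LPD among the F0 libraries and did not rise in F1, and Hephl1 was at 54.8 to 77.7 CPM in F1-CD alone.

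Between the control groups, 6 of 24 tested genes of the acute phase list were higher in F0-CD (C3, Serpina1d, Serping1, Mt1, Mt2 and Steap4) and 1 was lower (Lrg1), where 8.78% of all genes were higher and 10.1% lower. Of the signalling genes, 8 of 25 were higher (Il6ra, Il6st, Il1r1, Lifr, Osmr, Cebpd, Nfkbia and Nr3c1) and Cebpb was lower. Cebpd was at 67.1 and 83.1 CPM against 25.2 to 36.0 (1.38, SE 0.19, adjusted p = 0.000381) and Cebpb at 80.1 and 78.2 against 174 to 202 (−1.23, SE 0.11, adjusted p = 1.6e-05). Of 19 iron, haem and protease genes, Heph and Mcpt4 were higher and Hephl1 lower. Of the other Serpina3 genes, 1 of 3 passed, Serpina3i, higher in F0-CD at 1.45 and 2.69 CPM against 0.231 to 0.671.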

How the data were processed

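The authors mapped the paired 36-base reads to mm10 and counted them per gene in CLC Genomics Workbench 9.5.1, and the counting settings, strand use among them, are not given in the sources used here. The deposited count columns hold raw reads per gene, total and uniquely matching, 1 table per library. The deposited RPKM values were computed by the authors and were used here to compare levels between genes. The deposited TPM values, scaled by the authors to 1000000, were not used. Total exon counts were tested in R 4.3.3 with edgeR 4.0.16 (filterByExpr, TMM, quasi-likelihood F test, two-sided, Benjamini-Hochberg over all genes tested, threshold 0.05), F1 and F0 each in a fit of its own and the difference between generations and the control groups in a fit of all 10 libraries. The fit was tested on simulated data. The SE is the size of the log2 fold change divided by the square root of F. An exact permutation test of 1 gene cannot give less than 0.1 with 3 against 3 libraries or 0.333 with 2 against 2, so none is given. The F1 libraries are 1 per mouse, and for F0 the sources name duplicates only, so p-values measure the spread between these libraries. Alternatives were edgeR's likelihood ratio test, DESeq2 1.42.0 and its size factors, no low-count filter, at least 10 counts in every library, unique exon reads, exon and intron reads together, limma-trend (limma 3.58.1) applied to log2(RPKM + 0.1), a fit of all 4 groups together, a block for the replicate number and each library left out. The exon share as a covariate in F1 was added after seeing the data. Motifs were searched on both strands, TTCNNNGAA and an NF-κB motif besides TTGCNNAA, and 7.02% and 45.8% of promoters held these 2. TTCNNNGAA was found in neither Lcn2 nor Saa3, and the NF-κB motif once, in Lcn2. Promoters of Hp, Orm1 and Serpina3k are not shown. The 9 genes, the 4 lists of related genes and the tests were chosen with earlier results of these data known. The text names all 9, list genes past the threshold or the 4 most abundant of a list, and the 3 genes most like a member that passed. S100a8, S100a9, Retnlg, Krt18, Epcam and Alb are named as markers. Slc22a17, Il1b and Lif are named for a difference between generations or libraries, as are the F1 values of Cebpb, Il1rn, Nfkbia and Nr3c1.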

Additional observations from a re-analysis of the deposited data

Results flagged for a closer look

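By the interaction test (edgeR, all 10 libraries), the effect of the LPD differed between F1 and F0 for some genes of the related lists. All had a lower log2 fold change in F1. They were 3 of 24 tested acute phase genes, 1 of 25 signalling genes and 2 of 19 iron, haem and protease genes. Of the other Serpina3 genes, 0 of 3 passed. Over all 15111 genes, 1.25% passed, and 0.893% did so with the lower value in F1. The difference was −1.53 for Lbp (SE 0.26, adjusted p = 0.0179), −1.40 for Lrg1 (SE 0.23, adjusted p = 0.0148), −0.98 for Cebpb (SE 0.15, adjusted p = 0.00945), −0.85 for Serpinf1 (SE 0.19, adjusted p = 0.0484) and −1.82 for Hephl1 (SE 0.37, adjusted p = 0.0342). A sixth was Slc22a17, which encodes a receptor proposed for lipocalin 2, at −0.96 (SE 0.21, adjusted p = 0.0471). It lay at 12.9 to 13.7 CPM in F1-CD and 8.09 to 10.1 in F1-LPD, against 14.4 and 12.5 in F0-CD and 16.5 and 18.5 in F0-LPD.

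For 3 genes every library of a diet lay on one side in F1 and on the other in F0, without the test of that difference passing. Orm1 was lower in F1-LPD (−0.67) and higher in F0-LPD (0.14), with an adjusted p of 0.0999 for the difference. Nfkbia, an inhibitor of NF-κB, was at 0.19 in F1 and −0.40 in F0 (adjusted p = 0.0578 for the difference), and Nr3c1, the glucocorticoid receptor, at 0.22 and −0.19 (adjusted p = 0.182). Groups that do not overlap were found for 20.1% of all genes in F1 and 46.4% in F0.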

How the results depend on the processing

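The fall of Serpina3k in F1 kept its direction in all 9 other settings that could be fitted (−4.14 to −3.07) and lost the threshold in 1, the exon share as a covariate. It did not pass the filter with at least 10 counts or with unique reads, where the 1 member called was Orm1. The number of members called in F1 was 2 with the likelihood ratio test, DESeq2, all 4 groups in one fit and the replicate block, 3 without a filter, 0 with the exon share and 1 to 2 with a library left out. For the control groups it was 7 without a filter, 2 with limma and 1 to 5 with a library left out. For the difference between generations it was 2 with the likelihood ratio test or without a filter, 1 with DESeq2 and 0 to 1 with a library left out. In F0 it was 0 in every setting. Calls over all genes moved too, given here as higher and lower. In F1 they were 20 and 144 in the main fit, 145 and 437 with the likelihood ratio test and 74 and 301 with DESeq2. All 4 groups in one fit gave 62 and 277 and the replicate block 48 and 212. No filter gave 234 and 564, and the exon share 1 and 10. Without a filter the control groups gave 1677 and 1738, and the difference between generations 314 and 576. The cause of these changes was not tested.

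In F0, the calls over all genes were 172 higher and 192 lower in the main fit. They were 438 and 545 with the likelihood ratio test, 188 and 186 with DESeq2, and 633 and 710 without a filter. The replicate block gave 656 and 735, and all 4 groups in one fit 110 and 65. Among the other acute phase genes, the number called in F1 was 2 with the likelihood ratio test or DESeq2, 5 without a filter, 0 with exon and intron reads together, limma or the exon share and 0 to 2 with a library left out. The F0 number was 13 without a filter, 0 with limma, 2 with all 4 groups, 9 with the replicate block and 2 to 7 with a library left out. Among the other Serpina3 genes in F0, it was 1 with the likelihood ratio test, no filter, at least 10 counts, unique reads, exon and intron reads, limma or the replicate block, and 0 with a library left out. Among the signalling genes in F1, it was 1 with the likelihood ratio test, DESeq2, all 4 groups or the replicate block, 4 without a filter and 0 to 2 with a library left out. The F0 number was 4 with the likelihood ratio test, no filter or the replicate block, 2 with DESeq2, at least 10 counts or unique reads, 0 with limma and 0 to 2 with a library left out. Among the iron, haem and protease genes in F1, it was 4 with the likelihood ratio test, DESeq2 or no filter, 1 with exon and intron reads, 0 with the exon share and 1 to 3 with a library left out. The F0 number was 2 with the likelihood ratio test or no filter, 0 with DESeq2, exon and intron reads, limma or all 4 groups, 3 with the replicate block and 0 to 2 with a library left out.

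Signs turned only for log2 fold changes that did not pass the threshold. In F1, limma gave −0.47 for Lcn2, −0.049 for Hp and −0.17 for Serpina3c, and the exon share gave 0.33 for Serpina3g and 0.089 for Serpina3n. Serpina3c was −0.044 with exon and intron reads and −0.0022 with all 4 groups. Limma on RPKM moved the median of all genes to −0.15 in F1 and 0.12 between the control groups, where it called 1432 genes higher and 702 lower against 1326 and 1531. It called 2 higher and 115 lower against 20 and 144 in F1, 30 and 52 against 172 and 192 in F0, and 9 and 65 against 54 and 135 for the difference between generations. For the difference between generations, limma gave −0.22 for Lcn2 and −0.036 for Serpina3c, and Serpina3g was 0.0086 with DESeq2, 0.0080 with its size factors, 0.015 with at least 10 counts, 0.042 with unique reads and 0.12 with exon and intron reads. With unique reads Serpina3g was −0.057 between the control groups.

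With an F0 library left out, the lone library of its diet was assumed to vary like the others. With a library left out, the F1 range was −0.041 to 2.62 for Saa3, −1.69 to 1.02 for Lcn2, −0.065 to 0.35 for Hp, −0.13 to 0.18 for Serpina3c and −0.23 to 0.10 for Serpina3g. The F0 range was −0.91 to 0.23 for Lcn2, −0.021 to 0.42 for Hp, −0.22 to 0.066 for Serpina3c, −0.26 to 0.17 for Serpina3g, −1.70 to 0.45 for Serpina3k and −0.38 to 0.20 for Serpina3n. For the difference between generations it was −1.55 to 1.44 for Saa3, −1.45 to 1.43 for Lcn2, −0.29 to 0.16 for Hp, −0.072 to 0.24 for Serpina3c, −0.20 to 0.23 for Serpina3g and −0.53 to 0.059 for Serpina3n. Between the control groups it was −0.062 to 0.12 for Serpina3g and −1.95 to 0.20 for Serpina3k.

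The replicate numbers are not stated to pair the libraries. Deviations from the group means correlated between same-numbered libraries at 0.04, −0.00 and 0.01 in F1 and 0.05 in F0, and 1 of the 3 F1 numbers correlated best with its own. With the replicate number as a block, Orm1 in F1 was −0.64 (adjusted p = 0.0400), Lcn2 −0.12 and Serpina3c −0.0025, and Serpina3g was 0.0043 in the difference between generations. Depth limits Saa3, Serpina3k and Lcn2 most, and Saa3, with 3 to 19 reads in F0, was removed there by the filter and not tested.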
